A study of Mus musculus with 49 samples.

Results

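The mitotic cell cycle genes described here were 39 listed genes of the G2 and M phases, followed in whole urinary bladders of mice given arsenate in their drinking water. Only probe sets annotated to a single gene were used, and 38 of the 39 genes had at least 1. Where a gene had several, the brightest on average stood for it. Ccnb1, which encodes cyclin B1, is not analysed here because the annotation gives several genes for each of its probe sets. The filter on low signal was passed by 33 of the 38 genes, out of 14624 of 18193 genes on the array. Cdc25c, Bub1, Ttk, Cenpe and Ndc80 stayed below it. The choice of probe set used the mean signal over all arrays and no difference between groups.

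Female C57Bl/J mice drank water with arsenate at 0.5, 2, 10 or 50 ppm or water alone, and their bladders were taken after 12 weeks, at an age of 155 days, or after 1 week, at an age of 76 days. The 12-week harvest gave 25 arrays, 5 for each dose and for water. The 1-week harvest gave 24 arrays, 4 at 0.5 ppm and 5 in each of the other groups. Each array (Affymetrix Mouse430_2) held RNA of 1 unpooled animal. Length of exposure, age and day of harvest differ together between the 12-week and 1-week bladders and cannot be told apart. In the water groups age and day of harvest differ likewise.

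Values are probe set signals in log2(signal + 16), where a signal of 0 gives 4. A group mean under 5 is called near the floor. Every array had been scaled to a trimmed mean signal between 500.003 and 500.004. Urothelial markers averaged 12.81 to 13.41 per array at 12 weeks and 12.77 to 13.28 at 1 week, and smooth muscle markers 12.88 to 13.73 at 12 weeks and 13.13 to 13.83 at 1 week, so the labelled tissue was recognised in all arrays. RNA integrity numbers ran from 9.3 to 9.8 at 12 weeks and from 7.2 to 9.7 at 1 week, the 3 lowest all in the 2 ppm group. Markers of other tissue and of several cell types moved with the harvest. The mean of 11 liver genes was 5.67 to 6.54 per array at 12 weeks and 5.84 to 10.13 at 1 week, with Fgb, Fgg, Serpina1b, Ahsg and Plg near the floor at 12 weeks. The mean of 7 fibroblast genes was 12.14 to 13.39 at 12 weeks and 13.30 to 13.79 at 1 week, with none near the floor. Averaged over the 5 doses, 9 of 10 smooth muscle markers were lower at 12 weeks (median difference -0.158), as were 7 of 8 macrophage markers (-0.308). Urothelial markers were split, with 7 of 15 higher, and 6 of 7 B cell and plasma cell markers were higher (0.298). The medians of the liver mean at 1 week were 8.77 in water, 7.64 at 0.5 ppm, 7.99 at 2 ppm, 6.99 at 10 ppm and 6.09 at 50 ppm.

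Entry into mitosis is driven by cyclin-dependent kinase 1 bound to cyclin A or cyclin B. Polo and Aurora kinases then build the spindle, kinetochores attach chromosomes to it, and the spindle checkpoint holds back the anaphase-promoting complex until attachment is complete. These genes are transcribed mainly in late cell cycle phases, and the adult bladder epithelium is known for a very slow turnover.

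Most of the mitotic genes gave low but measurable signals. Of the 38 measured genes, 27 had all 10 group means at or above 5, and 11 had at least 1 group mean near the floor. The 5 genes below the filter were among those 11, with Ttk near the floor in 8 groups, Ndc80 in 6, Bub1 and Cenpe in 5 each and Cdc25c in 3. Their group means spanned 4.59 to 5.31 for Ttk, 4.52 to 5.22 for Ndc80, 4.63 to 5.38 for Bub1, 4.73 to 5.42 for Cenpe and 4.74 to 5.92 for Cdc25c. Ttk and Bub1 encode spindle checkpoint kinases, Ndc80 a microtubule-binding kinetochore subunit, Cenpe a kinetochore motor and Cdc25c a phosphatase that activates cyclin-dependent kinase 1. Differences of these 5 genes carry little weight at this signal.

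Among the 33 genes that passed the filter, 6 had a group mean near the floor, in each case at 12 weeks. Nuf2 was near the floor in 4 of the 12-week groups, Kif4 in 2, and Nek2, Cenpf, Kif20a and Mki67 in 1 each. None of the 33 was near the floor in a 1-week group. Cenpf, Nuf2, Kif11, Kif4, Ect2 and Mki67 lay above the 40th percentile of the array in fewer than 4 arrays at 12 weeks, so the filter would not have kept them on the 12-week arrays alone, and a lower 12-week signal was built into their selection. The other 27 lay above it in at least 4 arrays of each harvest.

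**Figure D1:**
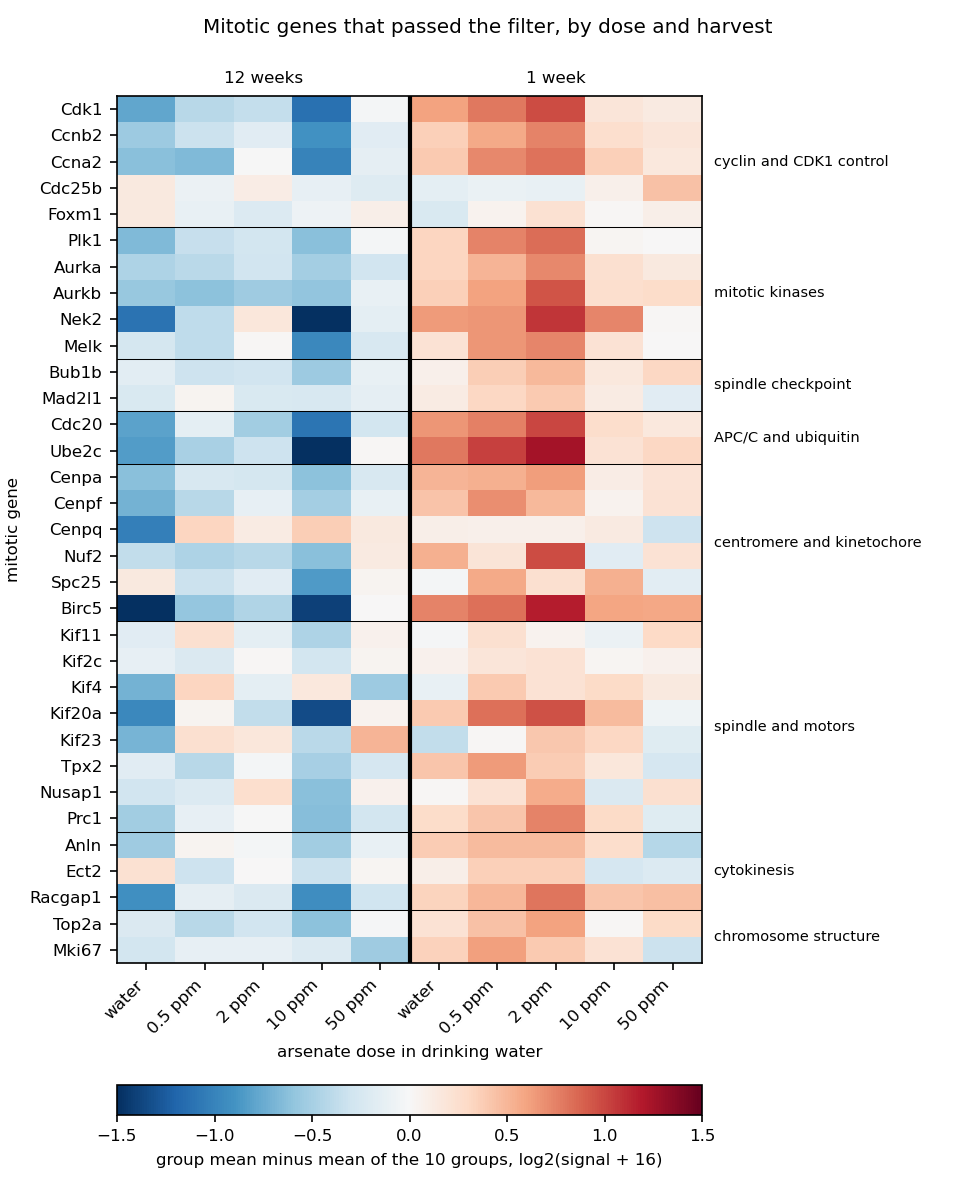
Group means of the 33 mitotic genes that passed the filter (rows, grouped by role) in the 10 dose and harvest groups (columns, 12 weeks on the left and 1 week on the right), each minus the gene's mean over the 10 groups, in log2(signal + 16). Colours at the ends of the scale also stand for larger differences. The 12-week columns are mostly blue and the 1-week columns mostly red.

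Within groups the mitotic genes varied together from animal to animal. After each group's mean was subtracted, the median Pearson correlation over the 528 pairs of the 33 genes was 0.315 across 49 arrays, 88.8% of the pairs were above 0, and the median over all pairs of tested genes was 0.0015. Cdc20 (0.84), Cdk1 (0.823), Ccnb2 (0.774), Kif20a (0.739) and Ube2c (0.735) followed the mean of the other members most closely. Kif11 (0.016) and Cenpq (-0.127) did not follow it. The mean over the 33 genes had its largest SD, 0.45, in the 2 ppm group at 1 week (6.76 to 7.73, n = 5) and its smallest, 0.12, in the 10 ppm group at 12 weeks (5.99 to 6.32, n = 5). In that 2 ppm group the 3 arrays of integrity number 7.2 had 7.66, 7.71 and 7.73, and the others, of 9.7 and 9.5, had 6.76 and 7.06. The correlations were not taken again without these 3 arrays. The arrays share their scaling and their tissue, and these correlations are a description.

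Outside the list, Kif22 (0.854), Pbk (0.823), Rrm2 (0.793), Pclaf (0.768) and Cdca5 (0.734) had the highest correlation with the mean of the 33 genes over the same 49 arrays, followed by Ncapd2, Serpina3n, Cdca3, Cdca8 and D17H6S56E-5 at 0.703 to 0.677. Kif22 encodes a chromosome-binding kinesin, Rrm2 a subunit of ribonucleotide reductase and Cdca5 sororin, which stabilises cohesin.

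The promoters of the members were read because the genes moved together across animals. Promoters of late cell cycle genes are known to carry the cell cycle genes homology region (CHR, searched as TTTGAA or TTCGAA) and the CCAAT box bound by NF-Y, each searched on both strands. RefSeq promoter sequence (GRCm38.p6, 250 bases before to 50 after the gene start) was at hand for 33 of the 39 listed genes. A CHR match was present in 24 of these 33 promoters, or 72.7%, against 18.2% of 17485 promoters of protein-coding genes. CCAAT was present in 25, or 75.8%, against 39%, and at least 2 copies in 17, or 51.5%, against 13.5%. Both motifs were present in 21, or 63.6%, against 7.43%. Of the 20 members with a promoter here that were lower at 12 weeks than at 1 week past the threshold used below for the harvests, 15 held a CHR match and 15 a CCAAT box. A match describes letters in a window and not a bound site.

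The 120 bases before the gene start are shown, 5′ to 3′ on the strand of the gene, for 5 members that rank high in following the others or in size of change and for Cenpq, which did not follow them. CHR and CCAAT matches are in capitals, in either orientation. They lie, in build GRCm38.p6, Cdk1 at chr10:69352913-69353032 (minus strand), Cdc20 at chr4:118437344-118437463 (minus strand), Ube2c at chr2:164769809-164769928 (plus strand), Top2a at chr11:99024190-99024309 (minus strand), Ccnb2 at chr9:70421555-70421674 (minus strand) and Cenpq at chr17:40934575-40934694 (minus strand).
Cdk1: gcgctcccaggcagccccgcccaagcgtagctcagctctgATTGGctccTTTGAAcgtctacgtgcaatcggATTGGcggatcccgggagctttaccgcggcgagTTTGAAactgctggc
Cdc20: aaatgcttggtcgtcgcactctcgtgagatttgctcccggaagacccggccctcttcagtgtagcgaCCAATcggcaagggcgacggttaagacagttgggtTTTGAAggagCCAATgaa
Ube2c: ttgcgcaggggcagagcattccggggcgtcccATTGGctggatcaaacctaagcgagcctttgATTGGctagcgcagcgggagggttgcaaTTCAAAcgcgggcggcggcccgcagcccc
Top2a: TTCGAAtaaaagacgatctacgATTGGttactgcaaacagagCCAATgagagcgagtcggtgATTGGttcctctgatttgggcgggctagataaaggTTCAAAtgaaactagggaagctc
Ccnb2: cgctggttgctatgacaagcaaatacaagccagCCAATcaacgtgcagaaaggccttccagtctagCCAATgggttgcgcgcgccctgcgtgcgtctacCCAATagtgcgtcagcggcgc
Cenpq: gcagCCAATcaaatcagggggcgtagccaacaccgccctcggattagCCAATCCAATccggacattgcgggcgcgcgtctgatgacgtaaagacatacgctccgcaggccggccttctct

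Cdk1, Cdc20, Ube2c and Top2a hold both motifs within the stretch shown. Ccnb2 holds 3 CCAAT boxes there, and its CHR matches lie outside it. Cenpq, which did not follow the other members across animals, has 3 CCAAT boxes and no CHR match in its promoter. Kif11, which did not follow them either, has 1 CHR match and 1 CCAAT box. Whether the motifs go with this measure over all members was not tested. Birc5, Melk, Nuf2 and Mad2l1, which were among those lower at 12 weeks, have neither motif in theirs.

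The first question was whether the 12-week and 1-week bladders differed in mitotic gene signal. Averaged over the 5 doses, all 33 genes that passed the filter had a lower mean at 12 weeks than at 1 week, and 24 fell past the threshold of an adjusted p under 0.05 (limma, Benjamini-Hochberg over 14624 genes). Of all genes tested, 19.3% were called lower in the same comparison. The median difference of the 33 genes was -0.628 in log2(signal + 16), against 0.012 over all genes tested. Without the filter, 36 of the 38 measured genes were lower and 24 fell, with a median of -0.553, where 15.1% of all genes were called lower. Of the 27 genes that lay above the 40th percentile in at least 4 arrays of each harvest, all were lower and 21 fell, with a median of -0.734, where 20.1% of the 13590 genes of that kind were called lower. Cenpf, Nuf2 and Mki67 were the other 3 of the 24. These counts changed with marker means in the model. With the mean of the liver markers in the model, chosen after the data were seen, 27 of the 33 stayed lower, with a median of -0.253, and 2 fell, against 3.96% of all genes. With the mean of the fibroblast markers in the model, 24 stayed lower, with a median of -0.336, and 3 fell, against 10.5% of all genes. The median standard error of the 33 genes was 0.257 and 0.313 in these fits, against 0.157 without markers. The fits with markers were thus less precise, and their median differences were also smaller. Whether the fewer calls reflect a part of these tissues was not tested. Both marker means themselves differ between the harvests, and whether the mitotic genes fell in number of dividing cells, in RNA per cell or through a changed mix of tissue cannot be told apart in whole bladders.

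**Figure D2:**
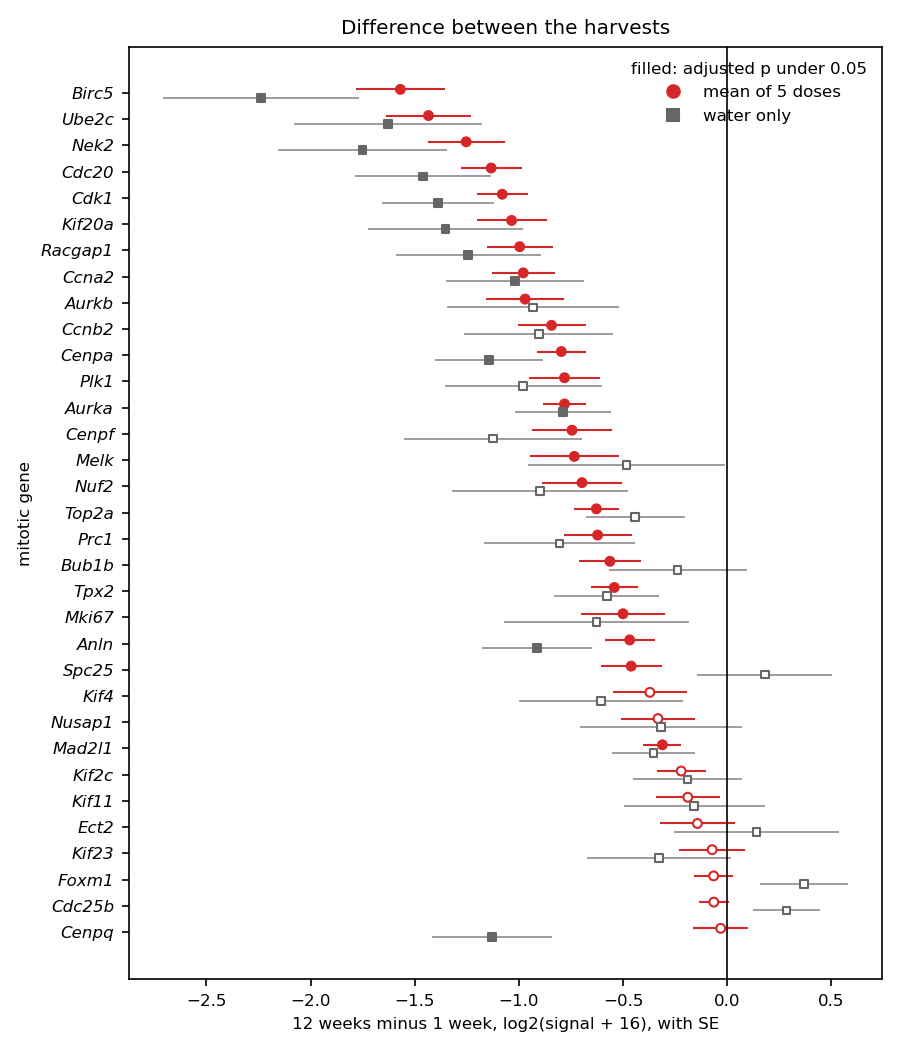
Difference between 12 weeks and 1 week (x axis, log2(signal + 16), bars are standard errors) for each of the 33 mitotic genes that passed the filter (y axis), as the mean of 5 doses (red circles) and in water alone (grey squares). Filled symbols had an adjusted p under 0.05 in limma: 24 of the red circles and 12 of the grey squares, all left of 0.

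Among the genes that control cyclin-dependent kinase 1, Cdk1, Ccnb2 and Ccna2 fell. Cdk1, the kinase itself, had a lowest, median and highest array of 6.19, 7.45 and 8.31 at 12 weeks, against 7.53, 8.41 and 9.36 at 1 week, a difference of -1.08 ± 0.12 (SE, adjusted p 1.371e-09). The cyclin B2 gene Ccnb2 had 5.53, 6.61 and 7.88 at 12 weeks, against 6.67, 7.34 and 8.51 at 1 week, and fell by 0.84. The cyclin A2 gene Ccna2 had 4.83, 6.95 and 8.12 at 12 weeks, against 6.79, 7.73 and 8.49 at 1 week, and fell by 0.98. In each of these genes the 12-week arrays lay lower as a group and their upper part overlapped the 1-week arrays. Cdc25b, a phosphatase that activates the kinase, and Foxm1, a transcription factor of mitotic genes, did not pass the test, with differences of -0.06 ± 0.07 and -0.07 ± 0.10 (SE, adjusted p 0.514 and 0.625).

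All 5 mitotic kinases that passed the filter fell. Nek2, a centrosome kinase, had 4.09, 5.68 and 7.62 as its lowest, median and highest array at 12 weeks, against 5.57, 6.87 and 8.38 at 1 week, and fell by 1.25 ± 0.18 (SE). Aurkb, the kinase of the chromosomal passenger complex, had 4.36, 5.67 and 7.10 at 12 weeks, against 5.42, 6.60 and 7.95 at 1 week, and fell by 0.97. Aurka, which acts at spindle poles, had 6.17, 6.88 and 7.58 at 12 weeks, against 6.62, 7.66 and 8.23 at 1 week, and fell by 0.78. The 2 harvests overlapped in each of the 3 genes. Plk1, the Polo kinase, had 4.91, 6.41 and 7.47 at 12 weeks, against 6.31, 6.91 and 8.58 at 1 week, and fell by 0.78. Melk, a kinase of proliferating cells, had 4.26, 6.04 and 6.96 at 12 weeks, against 4.57, 6.44 and 7.59 at 1 week, and fell by 0.73.

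The 2 members grouped under the anaphase-promoting complex, Ube2c and Cdc20, had a median difference of -1.28. A wider list of 14 genes of its subunits and partners had -0.097. Ube2c, the ubiquitin-conjugating enzyme of that complex, had 4.28, 6.70 and 8.81 at 12 weeks, against 6.89, 8.23 and 9.71 at 1 week, and fell by 1.43 ± 0.20 (SE, adjusted p 2.716e-07). Cdc20, an activator of the complex, had 7.08, 7.85 and 9.38 at 12 weeks, against 8.10, 9.00 and 10.13 at 1 week, and fell by 1.13 ± 0.15 (SE, adjusted p 3.985e-08). In both genes the median 12-week array lay below the lowest 1-week array. The spindle checkpoint genes Bub1b, a checkpoint pseudokinase, and Mad2l1, which binds Cdc20, fell by 0.56 and 0.31. Bub1b had 5.12, 7.07 and 7.72 at 12 weeks, against 6.50, 7.44 and 7.98 at 1 week, and Mad2l1 had 7.21, 7.84 and 8.41 at 12 weeks, against 7.11, 8.18 and 8.86 at 1 week.

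At centromeres and kinetochores, 5 of 6 genes fell, among them Cenpf and Nuf2, whose lower 12-week signal was built into the filter. Without these 2 it was 3 of 4. Birc5, the survivin subunit of the chromosomal passenger complex, showed the largest difference of the 33 genes in this comparison. Its lowest, median and highest array were 4.42, 6.30 and 7.89 at 12 weeks, against 7.02, 7.52 and 8.87 at 1 week, and it fell by 1.57 ± 0.21 (SE, adjusted p 1.021e-07). Its median 12-week array lay below its lowest 1-week array. Cenpa, the centromeric histone, had 6.00, 7.23 and 8.20 at 12 weeks, against 7.01, 7.97 and 8.60 at 1 week, and fell by 0.80. Cenpf, a kinetochore protein, fell by 0.75, with 4.34, 5.52 and 6.53 at 12 weeks, against 4.60, 6.25 and 7.10 at 1 week. Nuf2 and Spc25, subunits of the same kinetochore complex as Ndc80, fell by 0.70 and 0.46. Nuf2 had 4.18, 4.64 and 5.78 at 12 weeks, against 4.30, 5.67 and 6.69 at 1 week. Spc25 had 4.25, 6.50 and 7.25 at 12 weeks, against 5.80, 6.69 and 7.72 at 1 week. Both overlapped widely. Cenpq, a subunit of the inner kinetochore, gave -0.03 ± 0.13 (SE, adjusted p 0.878).

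Of 8 spindle and motor genes 3 fell. Kif20a, a kinesin of the spindle midzone, had 4.36, 5.87 and 7.47 at 12 weeks, against 5.80, 7.03 and 7.80 at 1 week, and fell by 1.03. Prc1, which bundles midzone microtubules, fell by 0.62, and Tpx2, an activator of Aurora A, fell by 0.54. Probe sets of lower mean signal differed by -0.60, -0.06 and 0.03 for Tpx2 and by -0.33 for Prc1. Prc1 had 5.02, 6.41 and 7.33 at 12 weeks, against 5.04, 7.06 and 7.81 at 1 week, and Tpx2 had 5.50, 6.47 and 7.29 at 12 weeks, against 6.15, 7.03 and 7.69 at 1 week. In these 3 genes the 12-week median was the lower and the ranges overlapped. Kif11, Kif2c, Kif4, Kif23 and Nusap1, which are motors and a spindle protein, had differences between -0.37 for Kif4 and -0.07 for Kif23 and did not pass the test. In cytokinesis, Racgap1, part of the centralspindlin complex, had 4.91, 6.60 and 7.92 at 12 weeks, against 6.80, 7.56 and 8.50 at 1 week, and fell by 1.00. Anln, an actin-binding protein of the contractile ring, had 6.09, 6.69 and 7.69 at 12 weeks, against 6.11, 7.32 and 8.10 at 1 week, and fell by 0.47. Ect2, the exchange factor for RhoA there, gave -0.14 ± 0.18 (SE, adjusted p 0.564). Top2a, which untangles DNA, fell by 0.63, with 6.04, 6.93 and 7.74 at 12 weeks, against 6.84, 7.50 and 8.41 at 1 week. Mki67, the Ki-67 antigen gene, gave -0.50 ± 0.20 (SE, adjusted p 0.0448) on signals of 4.32 to 6.21 at 12 weeks, against 4.39 to 7.06 at 1 week, and its call was kept in 22 of 49 fits that left out 1 array.

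With the liver marker mean in the model, Cdk1 and Cdc20 were the 2 genes that fell, by 0.60 and 0.75 (limma, adjusted p 0.0442 and 0.0486). With the fibroblast marker mean, the 3 were Birc5, Nek2 and Aurka, which fell by 1.38, 1.02 and 0.57. Leaving out the 3 arrays of integrity number under 8 left 21 genes called lower, against 16.0% of all genes, and a median of -0.531. With the RNA integrity number in the model 31 of the 33 were lower, with a median of -0.458, and 14 fell, against 10.8% of all genes.

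**Figure D3:**
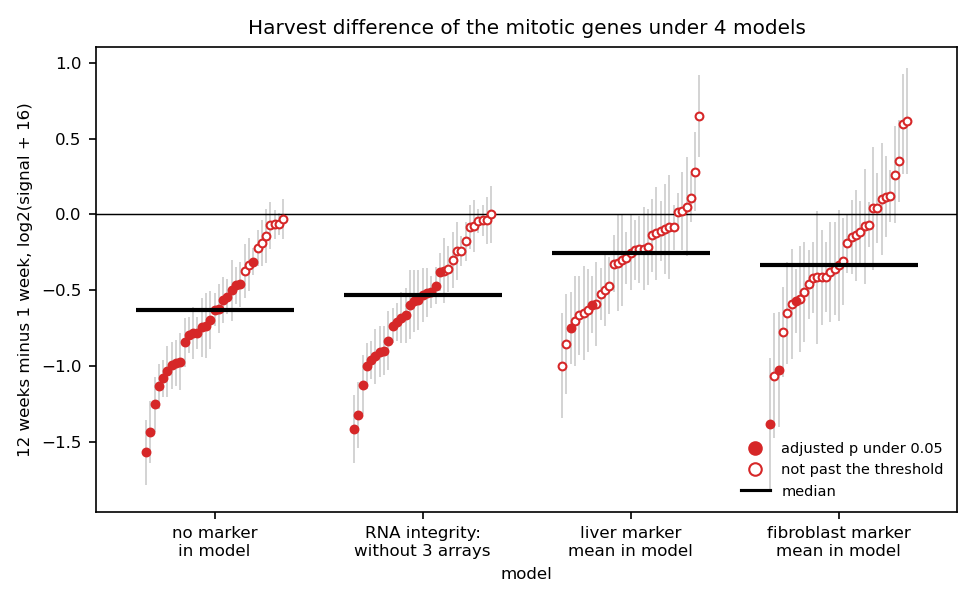
Difference between 12 weeks and 1 week (y axis, log2(signal + 16), bars are standard errors) of the 33 mitotic genes, sorted by size within each of 4 models, with the median as a black line. The median lies at -0.628 in the model without markers, -0.531 without the 3 arrays of low RNA integrity, -0.253 with liver markers and -0.336 with fibroblast markers in the model, and the filled symbols (adjusted p under 0.05) drop to 2 and 3 in the last 2 models.

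In water alone the same direction was seen without arsenate. Of the 33 genes, 29 were lower at 12 weeks than at 1 week, with a median of -0.805 against 0.02 over all genes, and 12 fell, where 7.09% of all genes were called lower. All 12 were among the 27 genes measured above the 40th percentile in at least 4 arrays of each harvest, of which 24 were lower, with a median of -0.905, and where 7.34% of all genes of that kind were called lower. The 12 were Cdk1, Ccna2, Aurka, Nek2, Cdc20, Ube2c, Cenpa, Cenpq, Birc5, Kif20a, Anln and Racgap1. With the liver marker mean in the model none passed the threshold, where 0.54% of all genes did, and the median was -0.246. With the fibroblast marker mean none passed it, where 0.868% did, and the median was -0.204. The median standard error was 0.461 and 0.508 in these fits, against 0.347 without markers. Without the 3 arrays of low integrity number the same count of 12 fell, where 7.02% of all genes did.

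The 2 largest changes in water were those of Birc5 and Nek2. Birc5 had 5.24, 4.80, 5.95, 6.46 and 4.65 in water at 12 weeks, against 7.46, 7.11, 7.65, 7.75 and 8.32 in water at 1 week. Every 12-week array was below every 1-week array, and 2 of the 12-week arrays were under 5. Nek2 had 4.26, 5.68, 5.48, 4.86 and 5.54 at 12 weeks, against 6.50, 6.42, 6.78, 7.09 and 7.78 at 1 week. Its groups did not overlap either. The differences were -2.24 ± 0.47 for Birc5 and -1.75 ± 0.41 for Nek2 (SE, limma adjusted p 0.00101 and 0.00272).

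Cdk1 had 7.04, 7.45, 6.95, 7.49 and 6.69 in water at 12 weeks, against 7.84, 8.11, 8.76, 8.76 and 9.11 at 1 week, again with no overlap. Cdc20 had 7.33, 7.85, 7.68, 8.41 and 7.40 at 12 weeks, against 9.06, 8.31, 9.22, 9.45 and 9.92 at 1 week, where the highest 12-week array passed the lowest 1-week array. Ube2c had 6.12, 6.70, 6.63, 7.40 and 6.64 at 12 weeks, against 8.08, 6.89, 8.56, 8.94 and 9.16 at 1 week. In Ube2c a single 1-week array lay inside the 12-week range. Ccna2 had 6.40, 6.42, 7.20, 6.53 and 6.69 at 12 weeks, against 6.79, 7.25, 7.86, 8.12 and 8.31 at 1 week. Cenpa had 6.00, 7.59, 7.23, 7.05 and 6.87 at 12 weeks, against 8.11, 7.57, 8.06, 8.42 and 8.31 at 1 week. These groups touched at 1 array each.

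Racgap1 had 4.91, 6.37, 5.67, 7.40 and 6.82 in water at 12 weeks, against 7.30, 6.80, 7.70, 7.57 and 8.03 at 1 week. Kif20a had 4.50, 5.82, 5.87, 6.37 and 4.36 at 12 weeks, against 6.14, 6.27, 7.02, 7.05 and 7.20 at 1 week. Both genes spread widely over the 12-week arrays and overlapped the lower 1-week arrays. Aurka had 6.91, 6.17, 6.72, 7.20 and 6.90 at 12 weeks, against 7.48, 6.94, 7.75, 7.66 and 8.01 at 1 week. Anln had 6.63, 6.46, 6.13, 6.74 and 6.09 at 12 weeks, against 7.24, 6.83, 7.38, 7.22 and 7.94 at 1 week. Anln did not overlap between the harvests and Aurka did. Of 10 fits that left out 1 water array, 3 kept the call of Ccna2, 8 those of Anln and Aurka and at least 9 those of the other 9 genes. In total, 6 of the 33 genes had every 12-week water array below every 1-week water array, namely Cdk1, Nek2, Birc5, Tpx2, Prc1 and Anln, where 4.74% of all genes did. The probe set used for Tpx2 differed by -0.58 in water, and those of lower mean signal by 0.11, 0.20 and -0.02.

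The size of the harvest difference was close from water to 10 ppm and smaller at 50 ppm, and its trend over doses was not tested. The median over the 33 genes was -0.805 in water, -0.771 at 0.5 ppm, -0.75 at 2 ppm, -0.722 at 10 ppm and -0.208 at 50 ppm. The number of genes with a lower mean at 12 weeks was 29, 29, 31, 32 and 24 in the same order. Of all genes tested, 47%, 47.6%, 47.3%, 50.9% and 54.9% were lower. In 22 genes the 12-week mean was the lower at all 5 doses, and the share of all genes with that pattern was not taken. These medians and counts include Cenpf, Nuf2, Kif11, Kif4, Ect2 and Mki67, whose lower 12-week signal was built into the filter. Cenpf, Nuf2, Kif4 and Mki67 are among the 22. At 50 ppm the liver marker mean, too, came closest to its 12-week range, with 5.79 to 6.08 at 12 weeks and 5.84 to 6.90 at 1 week, whereas in water it was 6.00 to 6.54 at 12 weeks and 6.95 to 9.39 at 1 week. At 50 ppm Kif23, Cenpq, Anln, Ect2, Spc25, Kif20a and Mad2l1 had the higher mean at 12 weeks, by 0.69, 0.46, 0.32, 0.23, 0.20, 0.11 and 0.04.

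**Figure D4:**
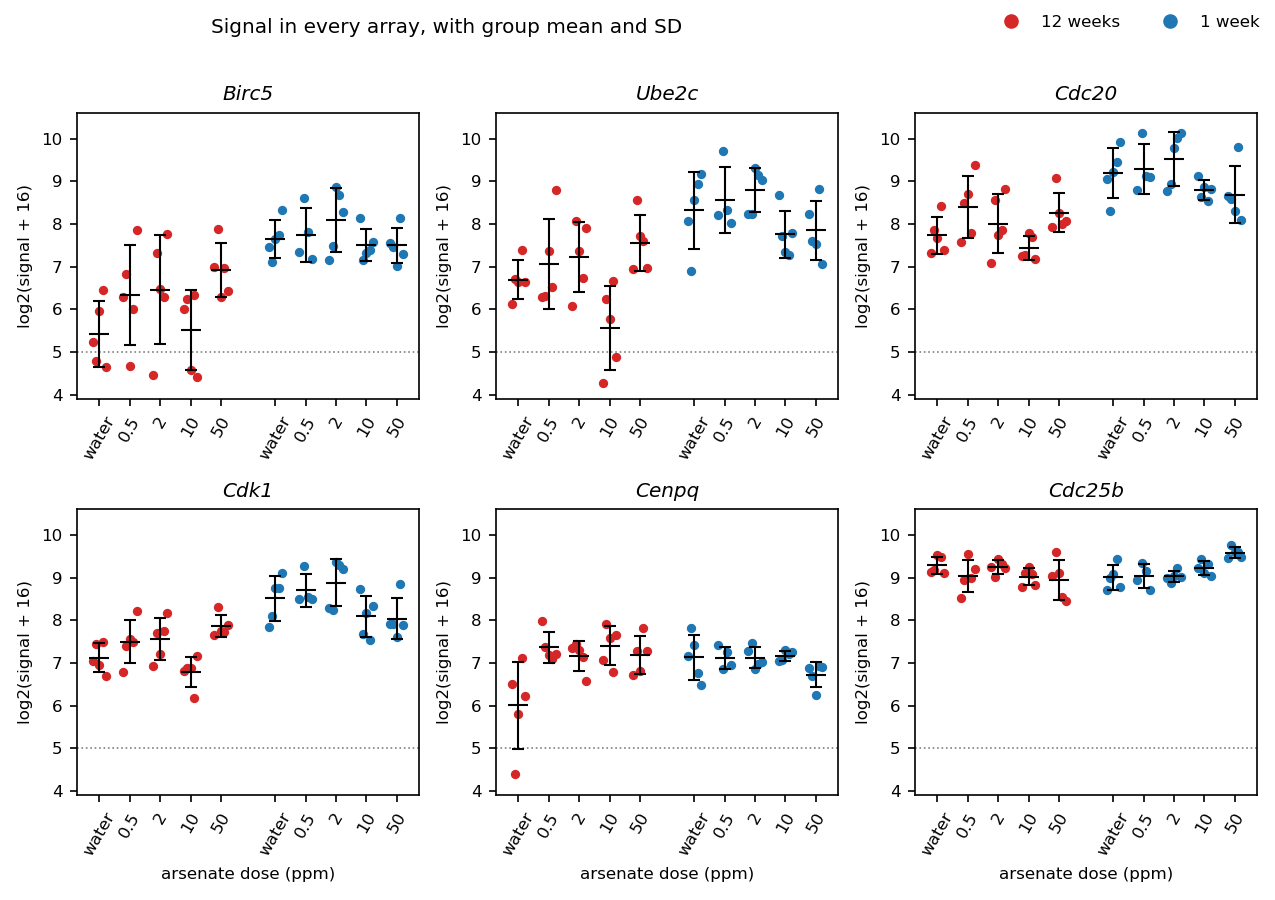
Signal of Birc5, Ube2c, Cdc20, Cdk1, Cenpq and Cdc25b in every array (y axis, log2(signal + 16)) by arsenate dose in ppm (x axis), 12 weeks in red on the left and 1 week in blue on the right of each panel, with group means and SD bars and a dotted line at 5. The red points of Birc5, Ube2c, Cdc20 and Cdk1 lie lower than the blue ones as a group, while in Cenpq the 12-week water group (mean 6.01) stands below all other groups.

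The difference of the 50 ppm effect between the harvests was tested as an interaction. Of the 33 genes, 3 had a higher 50 ppm effect at 12 weeks than at 1 week and 1 a lower one, where 7.36% of all genes were called in either direction. The 3 were Cenpq (1.59 ± 0.41, adjusted p 0.0151), Anln (1.23 ± 0.38, adjusted p 0.0357) and Cdk1 (1.21 ± 0.38, adjusted p 0.0407), and the 1 was Cdc25b (-0.91 ± 0.23, adjusted p 0.0124), all in limma with SE. The median over the 33 genes was 0.553, against -0.042 over all genes, and was 0.093 with the liver marker mean and 0.256 with the fibroblast marker mean in the model. All 10 smooth muscle and all 7 fibroblast markers also had the higher 50 ppm effect at 12 weeks, with medians of 0.29 and 0.359, as did 10 of 11 liver markers, with a median of 1.943. Adding the liver markers left Cenpq and Cdc25b called, and adding the fibroblast markers left Cdc25b alone. With the poly-A control signal as a covariate no call was left, and of 20 fits that left out 1 array 12 kept Anln and 8 kept Cdk1.

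The arrays behind these calls were as follows for Cdk1. It had 7.65, 8.31, 7.75, 7.73 and 7.90 at 50 ppm against 7.04, 7.45, 6.95, 7.49 and 6.69 in water at 12 weeks. It had 7.92, 7.92, 7.60, 8.86 and 7.90 at 50 ppm against 7.84, 8.11, 8.76, 8.76 and 9.11 in water at 1 week. At 12 weeks every 50 ppm array was above every water array, which held for 3.01% of all genes, and at 1 week the groups overlapped with the 50 ppm arrays mostly in the lower part. Anln had 6.83, 6.69, 6.75, 7.38 and 6.48 at 50 ppm against 6.63, 6.46, 6.13, 6.74 and 6.09 in water at 12 weeks. At 1 week it had 6.60, 6.24, 6.20, 7.38 and 6.11 at 50 ppm against 7.24, 6.83, 7.38, 7.22 and 7.94 in water. Its 50 ppm arrays were mostly the higher at 12 weeks and, apart from 1 array, the lower at 1 week.

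Against water of the same harvest, few mitotic genes passed the test at any dose. At 12 weeks and 50 ppm, 27 of the 33 genes had the higher mean at 50 ppm, with a median difference of 0.375 against -0.036 over all genes, and Cenpq was the single gene called, where 4.06% of all genes were called in either direction. Markers of some other cell types moved with this shift, and those of others did not. All 10 smooth muscle markers were higher at 50 ppm, with a median of 0.32, 6 of 7 endothelial markers, with a median of 0.329, and 6 of 7 fibroblast markers, with a median of 0.236. The mean of the smooth muscle markers was 13.34 to 13.73 per array at 50 ppm and 12.88 to 13.31 in water, and no marker of the 3 lists was near the floor. Mesothelial markers went the other way, with 6 of 7 lower (median -0.181), as did 3 of 4 adipocyte markers (median -0.292). Of 15 urothelial markers 7 were higher and 8 lower. The median of the 33 genes was 0.359 with the fibroblast marker mean and 0.301 with the liver marker mean in the model, and the part of smooth muscle and endothelium was not tested. The median of the 6 kinetochore genes was 0.55 and that of the 5 kinases 0.47, with none of the kinases called. Of the genes with both group means at or above 5 that were not called, Birc5 and Kif23 had the largest differences. Birc5 had 7.00, 7.89, 6.30, 6.98 and 6.44 at 50 ppm, against 5.24, 4.80, 5.95, 6.46 and 4.65 in water, a difference of 1.50 ± 0.56 (SE, limma adjusted p 0.101). Kif23, a kinesin of centralspindlin, had 7.37, 7.34, 6.81, 7.84 and 7.57 at 50 ppm, against 6.61, 4.83, 7.13, 6.41 and 5.94 in water, a difference of 1.20 ± 0.36 (SE, limma adjusted p 0.0538). Both genes had 1 water array or more inside the 50 ppm range.

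Cenpq stood apart through the 12-week water group. It had 6.50, 4.39, 5.80, 7.12 and 6.22 in water at 12 weeks. It had 7.98, 7.37, 7.18, 7.09 and 7.20 at 0.5 ppm, 7.36, 7.45, 7.31, 7.14 and 6.57 at 2 ppm, 7.08, 7.92, 7.58, 6.80 and 7.65 at 10 ppm and 6.73, 7.27, 6.82, 7.83 and 7.27 at 50 ppm. At each dose the arrays overlapped the water group through its highest array, 7.12, and the other 4 water arrays were below every dosed array. The mean of the 4 doses exceeded water by 1.27 ± 0.27 (SE, limma adjusted p 0.0488), where 0.123% of all genes were called, and by 0.869 (adjusted p 0.192) without the water array of 4.39. At 1 week Cenpq had 6.89, 6.70, 6.24, 6.92 and 6.90 at 50 ppm, against 7.17, 7.82, 7.43, 6.76 and 6.49 in water. The call at 50 ppm rests on few arrays. Without the water array of 4.39 the difference was 0.774 (adjusted p 0.151), and 3 of the 10 fits that left out 1 array kept it. With the poly-A control signal as a covariate it was 0.424 (adjusted p 0.815). That control signal averaged 9.84 at 50 ppm and 10.71 in water at 12 weeks.

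At the lower doses of the 12-week harvest no mitotic gene passed the test. The background was 0.527% of all genes at 0.5 ppm, 0.0137% at 2 ppm and 0.335% at 10 ppm. The median of the 33 genes was 0.268 at 0.5 ppm, 0.366 at 2 ppm and -0.258 at 10 ppm, so the 10 ppm group went the other way, with 24 of 33 genes lower than in water. At an unadjusted p under 0.05, 6 genes were higher at 0.5 ppm, 4 were higher at 2 ppm, and 2 were higher and 2 lower at 10 ppm, where 19%, 9.91% and 16% of all genes reached that level. At 10 ppm Ube2c had 4.27, 6.25, 5.77, 6.67 and 4.89, against 6.12, 6.70, 6.63, 7.40 and 6.64 in water, a difference of -1.13 ± 0.47 (SE, limma adjusted p 0.234). At 2 ppm Nek2 had 6.09, 6.57, 5.52, 6.44 and 7.62, against 4.26, 5.68, 5.48, 4.86 and 5.54 in water (1.28 ± 0.44, SE, limma adjusted p 0.447). At 0.5 ppm Kif20a had 5.83, 6.39, 6.08, 6.15 and 7.47, against 4.50, 5.82, 5.87, 6.37 and 4.36 in water (1.00 ± 0.42, SE, limma adjusted p 0.189). In all 3 genes the dose and water arrays overlapped. Over dose ranks, 22 of 33 slopes were above 0 and none passed the test, where 5.26% of all genes did. At an unadjusted p under 0.05 it was 1 mitotic gene, where 22.5% of all genes reached that level.

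**Figure D5:**
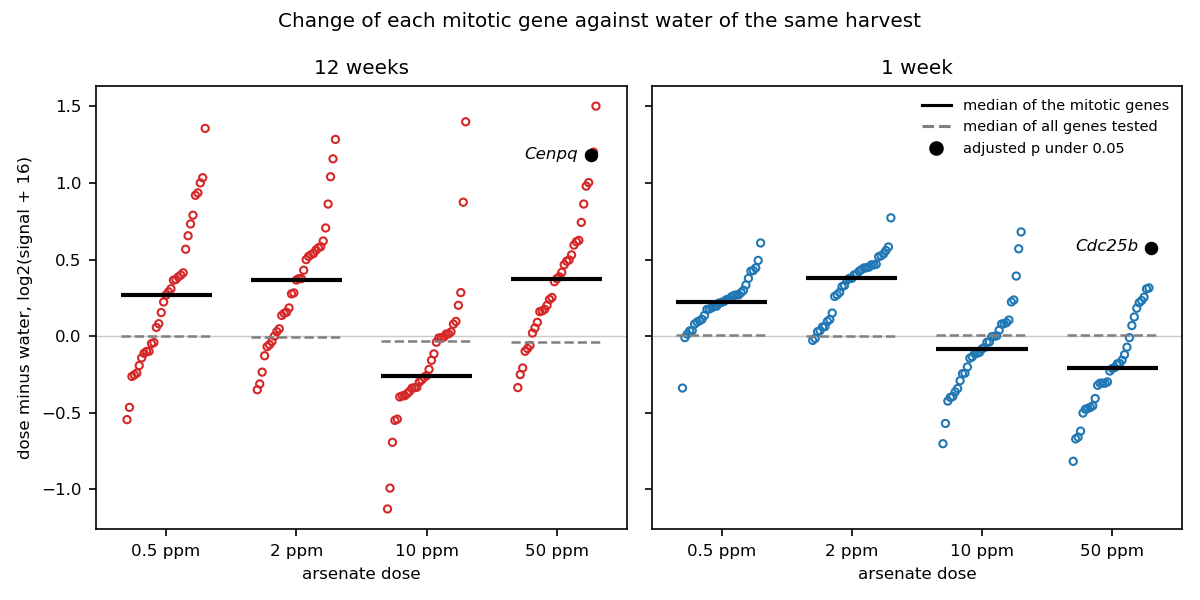
Difference of each of the 33 mitotic genes from water of the same harvest (y axis, log2(signal + 16)) at 4 arsenate doses (x axis), 12 weeks on the left and 1 week on the right, sorted by size within a dose. Black lines are medians of the mitotic genes, dashed grey lines medians of all genes tested and filled black points genes with an adjusted p under 0.05 in limma, which were Cenpq at 12 weeks and Cdc25b at 1 week, both at 50 ppm.

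At 1 week Cdc25b was the single mitotic gene called, at 50 ppm, where 0.335% of all genes were. It had 9.45, 9.77, 9.59, 9.61 and 9.48 at 50 ppm, against 8.71, 9.00, 9.09, 9.43 and 8.79 in water. Every 50 ppm array was above every water array, as in 1.46% of all genes, and the difference was 0.58 ± 0.13 (SE, limma adjusted p 0.0378). Leaving out 1 array at a time kept the call in 2 of 10 fits, and the difference ran from 0.506 to 0.731 over all settings tried. At 12 weeks the same gene had 9.03, 9.61, 9.11, 8.55 and 8.46 at 50 ppm, against 9.14, 9.19, 9.52, 9.48 and 9.10 in water, a difference of -0.34 ± 0.18 (SE, limma adjusted p 0.255). The 33 genes had a median of -0.211 at 50 ppm and 1 week, with 24 lower, and the median became 0.413 with the liver marker mean and 0.119 with the fibroblast marker mean in the model. Anln had 6.60, 6.24, 6.20, 7.38 and 6.11 at 50 ppm, against 7.24, 6.83, 7.38, 7.22 and 7.94 in water (-0.82 ± 0.29, SE, limma adjusted p 0.233). Mki67 had 6.14, 4.90, 4.82, 4.39 and 5.40 at 50 ppm, against 4.85, 6.04, 5.82, 6.08 and 6.20 in water (-0.67 ± 0.45, SE, limma adjusted p 0.6).

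No mitotic gene was called at 10, 2 or 0.5 ppm at 1 week, where 0.78%, 0% and 0.0479% of all genes were, and 1, 1 and 0 mitotic genes had an unadjusted p under 0.05, where 17.1%, 5.93% and 12.5% of all genes did. The medians were 0.22 at 0.5 ppm, 0.377 at 2 ppm and -0.083 at 10 ppm, with 31, 31 and 11 of 33 genes higher than in water. The 10 ppm median turned to 0.247 with the liver marker mean and 0.041 with the fibroblast marker mean in the model. At 2 ppm the 3 arrays of integrity number 7.2 had the highest means over the 33 genes, 7.66, 7.71 and 7.73, against 6.76 and 7.06 in the other 2 arrays. Without those 3 arrays the 2 ppm median was -0.109. Kif23 had 7.10, 7.50, 6.83, 7.23 and 7.74 at 2 ppm and 6.86, 7.18, 7.10, 7.34 and 7.47 at 10 ppm, against 5.15, 6.63, 6.67, 6.63 and 7.47 in water. These arrays overlapped, and the differences were 0.77 ± 0.30 and 0.68 ± 0.30 (SE, limma adjusted p 0.798 and 0.248). Aurkb at 2 ppm had 6.55, 6.37, 7.55, 7.95 and 7.32, against 6.65, 5.68, 6.40, 6.96 and 7.14 in water. Nuf2 at 10 ppm had 4.91, 5.14, 6.09, 4.30 and 4.60, against 6.03, 4.33, 6.27, 5.62 and 6.29 in water. At 0.5 ppm the largest changes were those of Spc25, with 6.59, 7.51, 7.41 and 7.14 against 6.66, 5.80, 6.53, 6.51 and 7.28 in water, and Kif4, with 5.99, 6.78, 6.05 and 4.88 against 4.87, 6.11, 5.65, 4.92 and 5.60 in water. None of these 4 genes separated from water. The mean of all doses and dose ranks at 1 week gave no call among the 33 genes, where 0.109% and 0.267% of all genes were called and at an unadjusted p under 0.05 the mean of all doses had 2 genes higher and the dose ranks 1 higher and 3 lower, where 11.5% and 9.72% of all genes were called.

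Wider lists of related processes were set beside the mitotic genes in the same comparison of 12 weeks with 1 week, mean of 5 doses, where 19.3% of all genes were called lower and 18.4% higher. Of 61 other mitosis genes that passed the filter, 29 fell and 2 were higher past the threshold, with a median of -0.255. The largest falls were those of Pbk (-1.24), Cdca8 (-1.08), Cdca5 (-1.03) and Pimreg (-1.02), and the 2 higher genes were Mis12 (0.38) and Wee1 (0.39), a kinase that restrains cyclin-dependent kinase 1. Of 34 DNA replication genes, 20 fell and 1, Tyms (0.25), was higher, with a median of -0.243. Uhrf1 (-1.14), Mcm5 (-0.93), Rrm2 (-0.77) and Ccne1 (-0.68) fell most. Among 14 genes of subunits and partners of the anaphase-promoting complex, Fzr1 and Ube2s among them, 7 fell and none was called higher, with a median of -0.097. The 19 regulators of the E2F, MuvB and MYB families showed no common direction, with 9 higher and 10 lower and a median of -0.012. The 4 that fell, E2f7 (-0.75) among them, are near the share called lower over all genes, and 2 were called higher, Rbl2 (0.44) among them. Of 15 G1 cyclins, inhibitors of cyclin-dependent kinases and related genes, 5 were higher and 10 lower, 3 were called higher and 7 fell, with a median of -0.149. Cdkn1b (-0.37), which encodes the inhibitor p27, the cyclin D1 gene Ccnd1 (-0.36) and Gas1 (-0.36) fell most, and Cdkn1a (0.38), which encodes the inhibitor p21, was the highest of those called higher.

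The 33 genes were described by their probe sets of highest mean, and the 39 other probe sets of the 38 measured genes gave 26 lower means at 12 weeks than at 1 week. Of the 21 of these that passed the filter, 17 were lower.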

How the data were processed

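Total RNA of whole bladders was labelled with biotin and hybridised, 1 animal per array, to Affymetrix Mouse430_2, per the labels' protocols. The authors deposited 1 signal intensity per probe set, made with GCOS 1.0 per the submitters' processing notes. What it was set to do was not stated. The deposited intensities had a mean of 500.003 to 500.004 on every array after 2% was trimmed at each end. The number of arrays limits the precision.

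Values were analysed as log2(intensity + 16) with no further scaling. A probe set was named where the platform annotation gave 1 gene (34945 of 45101, with 932 naming several genes, 9160 none and 64 controls), and the probe set of highest mean stood for each of 18193 genes. Genes above the array's 40th percentile in at least 4 arrays were tested (14624). Differences were fitted with limma 3.58.1 (R 4.3.3; moderated test with a trend, Benjamini-Hochberg over all genes tested). Each harvest was fitted alone for dose, and all 49 arrays together for harvest and for the 50 ppm effect between harvests. Figures were drawn with matplotlib 3.10.9 in Python 3.11.15.

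The fits were tested on simulated data. Values of every array were given for genes called in a comparison and for the 2 of largest change in each comparison whose group means were both at or above 5. Of other lists, up to 4 called genes were named by size of change, and the 10 genes most like the members by correlation. The members and lists were chosen with earlier results of these data known. Replicate numbers were not treated as pairs, since in no comparison did every same-numbered pair correlate above 0.1. Mean correlations of such pairs ran from -0.031 to 0.142, and a pair reached 0.389 at 0.5 ppm and 12 weeks. This rule cannot exclude a shared cage or day. Alternatives covered the offset, quantile normalization, filter, probe set rule, RNA integrity, poly-A control signal, replicate block, 1 common fit and leaving out 1 array. Fits with liver or fibroblast marker means, fits without 3 arrays of low RNA integrity and the counts over genes above the 40th percentile in at least 4 arrays of each harvest were chosen after seeing the data.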

Additional observations from a re-analysis of the deposited data

Results flagged for a closer look

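Arrays far from the others of their group were looked for in 84 groups over 19 mitotic genes, and 4 were found, where chance gives about 1 in 20 groups. The highest Cdk1 array at 0.5 ppm and 1 week was 9.27, and the next of the 4 arrays was 8.54. The highest Cdk1 array at 50 ppm and 1 week was 8.86, and the next was 7.92. The highest Cdc20 array at 50 ppm and 12 weeks was 9.07, and the next was 8.25. The lowest Mki67 array in water at 1 week was 4.85, and the next was 5.82.

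The effect of 50 ppm against water differed between 12 weeks and 1 week in 4 of 33 mitotic genes by an interaction term in limma. Of all genes, 7.36% were called in either direction, and with the poly-A control signal as a covariate none of the 4 calls was left. The difference was 1.59 for Cenpq, 1.23 for Anln, 1.21 for Cdk1 and -0.91 for Cdc25b. The Cenpq and Cdc25b calls were kept in all 20 fits that left out 1 array of the 4 groups compared, the Anln call in 12 and the Cdk1 call in 8.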

How the results depend on the processing

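The count of called mitotic genes between 12 weeks and 1 week, mean of 5 doses, was 24. It became 13 under a 60th percentile filter, which tested 10935 genes in place of 14624. It became 14 with RNA integrity, 2 with liver markers and 3 with fibroblast markers in the model. Of all genes, 10.8%, 3.96% and 10.5% were called lower in these 3 fits. The other counts of this section are given without the share of all genes called in the same setting, and are not read against it. In water the 12 became 0 with either marker mean. The 4 calls of the 50 ppm effect between harvests became 0 with the poly-A control signal, 2 with liver and 1 with fibroblast markers. At 50 ppm and 12 weeks the 1 call was lost (0) under offsets of 1 and 64, without a filter, with the mean of all probe sets, with RNA integrity, poly-A or fibroblast markers as covariates and with the replicate block, and became 3 with all arrays in 1 fit. For all doses at 12 weeks it was lost (0) under those same settings other than the common fit, and under quantile normalization. Apart from leaving out 1 array, the call of Cenpq itself was kept in 3 of 12 settings at 50 ppm and 12 weeks, and in 3 of 12 for all doses. At 50 ppm and 1 week the 1 call, of Cdc25b, was lost (0) under quantile normalization, the common fit, either marker mean and without the 3 arrays of low RNA integrity. The common fit gave 1 call where there had been 0 at 10 ppm, at 0.5 ppm and over dose ranks at 12 weeks, fibroblast markers 1 at 10 ppm and 12 weeks, the 60th percentile filter 1 at 0.5 ppm and 12 weeks and 1 over dose ranks at 1 week, and the replicate block 1 over dose ranks at 1 week. The cause was not tested. Leaving out 1 array gave 23 to 25 calls for the mean of 5 doses, 9 to 14 in water, 2 to 5 for the 50 ppm effect between harvests, 0 to 2 at 50 ppm and 12 weeks, 0 to 1 at 10 and 0.5 ppm, all doses and dose ranks at 12 weeks and at 50 ppm and dose ranks at 1 week, and 0 in the others. The opposite direction was seen for Aurka in water with the mean of all probe sets (0.012), for Mki67 (0.050) with liver markers, and for Anln (0.045), Mad2l1 (0.121), Mki67 (0.040), Nuf2 (0.103) and Spc25 (0.352) with fibroblast markers. Of 1925 settings of single calls, 1708 kept the call, 210 lost it in the same direction and 7 turned. Of 442 settings of the median over the mitotic genes, 432 moved it by under 1 SD between arrays. The median at 10 ppm and 1 week (-0.083) became 0.247 with liver and 0.041 with fibroblast markers, and that at 50 ppm and 1 week (-0.211) became 0.413 and 0.119. Signals near the floor can limit the size of change in 11 of the 38 measured genes.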
